A study of Drosophila melanogaster with 4 samples.

Results

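The H3K4me2-enriched regions described here are those that lay on 2L, the left arm of chromosome 2 of Drosophila melanogaster, chosen by their sequence name alone. Replicate 1 had 824 of its 4752 enriched regions there (17.3%), and replicate 2 had 806 of 4701 (17.1%). Both lists came from chromatin immunoprecipitation and sequencing (ChIP-seq) of nuclei from wild-type Oregon-R larvae (strain Oregon-R-modENCODE) of the third instar, which precedes the pupa, with an antibody from Active Motif. The series held 4 samples, namely 2 immunoprecipitates and 2 inputs of chromatin from the same strain and stage that no antibody had selected. Each immunoprecipitate had been called against the input of its own number. The labels speak of homogenised tissues without naming them, so each list stands for a mixture of larval cell types, and nothing says whether the replicates were separate collections of larvae. Arms 3L, 3R and X served as the background, with 2832 regions in replicate 1 and 2796 in replicate 2. Arm 2R was not part of the comparison.

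H3K4me2 is histone H3 that carries a pair of methyl groups on lysine 4. Nucleosomes with it flank promoters and enhancers of active genes and of genes held ready for activity, and they are scarce in compact, gene-poor chromatin. In flies, as in most animals, the sequence beside the centromere is packaged as heterochromatin, and the assembled arm runs from the telomere into the border of that domain. Along the rest of an arm, clusters of broadly expressed genes alternate with stretches whose genes are silent in most tissues. Coordinates follow FlyBase release 5. The gene table at hand follows release 6, so regions are given by position, with no gene, exon or intron, and the labelled tissue could not be checked against marker genes.

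H3K4me2 was spread over less of 2L than of any of the 3 background arms, in both libraries. Regions covered 15.5% of the arm in replicate 1 and 15.2% in replicate 2, which is 3.57 and 3.49 Mb of 23.0 Mb. On 3L, 3R and X together the covered share was 17.3% in replicate 1 and 16.9% in replicate 2. The difference of 2L from that background was -1.75 ± 0.0203 percentage points (SD, n = 2), and the values of 2L and of the background did not overlap. Arm 3L was the nearest, with 16.1% in replicate 1 and 15.7% in replicate 2, and each of these was above the 2L value of the same library. The mean of 2L (15.3% ± 0.250) lay farther below those of 3R (17.6% ± 0.334) and X (17.7% ± 0.169; SD, n = 2). With 2 libraries, an exact two-sided permutation that swaps 2L and the pooled background within each library cannot go below p = 0.5. No test between arms was therefore made, and differences are set against the spread between replicates. The share of each arm to which reads can be aligned uniquely was not measured, and its part in these values was not tested.

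The covered share of an arm is the product of how many regions it holds per Mb and how long they are, and 2L stood apart from its neighbours in different ways. Against X, the number of regions was nearly equal and the length was not. There were 35.8 and 35.03 regions per Mb on 2L in replicates 1 and 2, against 35.9 and 35.9 on X. Their mean length was 4330 and 4326 bp on 2L in replicates 1 and 2, against 4975 and 4915 bp on X. The ratio of 2L to X was thus 0.987 ± 0.0145 for number and 0.875 ± 0.00696 for length (SD, n = 2). Against 3L the order was the opposite, with a ratio of 0.953 ± 0.00676 for number and 1.01 ± 0.00917 for length (SD, n = 2). Set beside 3R, 2L had fewer regions (0.901 ± 0.000133) and slightly shorter ones (0.968 ± 0.00274; SD, n = 2).

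**Figure D1:**
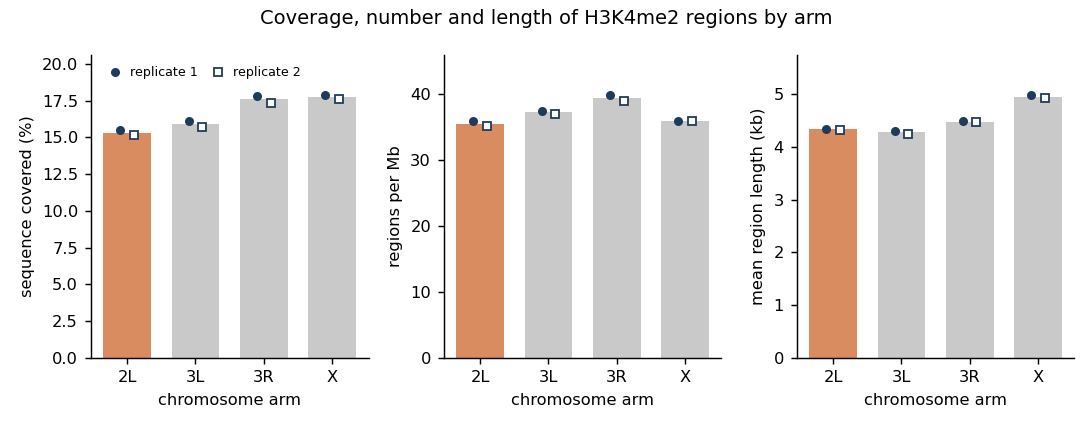
Covered sequence (%), regions per Mb and mean region length (kb) on 2L and on the background arms, with bars for the mean of 2 replicates and points for each replicate. Arm 2L has the lowest covered share (15.3%), as many regions per Mb as X (35.4 and 35.9) and a mean length close to that of 3L (4328 and 4276 bp).

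Most regions on 2L were of middling length, and a minority of longer ones held a large share of the marked sequence. On 2L the median region was 3275 bp (replicate 1) and 3362 bp (replicate 2) long, against 3534 and 3494 bp on the background arms. Regions of 2 to 5 kb made up 65.0% ± 1.45 of all regions on 2L and held 47.9% ± 1.06 of its marked sequence (SD, n = 2). Regions under 2 kb were 9.87% ± 1.15 of the total and held 3.84% ± 0.393 of the marked sequence (SD, n = 2). In the class from 5 kb upward, replicate 1 had 209 regions and replicate 2 had 201. They were 25.2% ± 0.301 of the regions on 2L, against 29.1% ± 0.591 on 3L, 3R and X together, and the values did not overlap (SD, n = 2). The background was pulled up by X, where the share was 34.7% ± 0.497. On 3L it was 26.1% ± 0.785 and on 3R 27.6% ± 0.540, both closer to 2L (SD, n = 2). Regions of 5 kb or more held 48.3% ± 0.669 of the marked sequence on 2L and 48.3% ± 1.57 on 3L. On 3R they held 51.6% ± 0.657 and on X 59.8% ± 0.825 (SD, n = 2). No region of either list was shorter than 1301 bp (1307 bp on 2L), and no source used here gives the caller's limits on length, so lengths may partly reflect the calling.

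The deposited score, the authors' own number per region on a scale that is not stated, was higher in each successive length class on 2L. Its median was 0.41 in replicate 1 and 0.39 in replicate 2 for regions under 2 kb. For regions of 2 to 5 kb it was 1.44 and 1.34, for 5 to 10 kb 1.97 and 1.75, and for 10 kb or more 2.15 and 1.96. Across the 2L regions of one library, Spearman's rho between length and score was 0.73 in replicate 1 and 0.71 in replicate 2. It was much the same on 3L, 3R and X, from 0.72 to 0.73 in both replicates. This is a description across regions, which are not independent. Scores above the median of the whole list were found for 48.9% of the 2L regions in each replicate, against 51.3% and 50.9% on the background arms. Arm 3L was close to 2L, with 49.3% in replicate 1 and 48.6% in replicate 2. On 3R the shares were 51.1% and 50.2%, and on X 53.8% and 54.5%.

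The very broad domains, regions of 10 kb or more, lay mostly in the outer part of the arm. Each replicate had 42 of them on 2L. Before 14 Mb lay 37 of those of replicate 1 and 38 of those of replicate 2. Between 14 and 18 Mb there were 2 and 0, and beyond 18 Mb 3 and 4. Of the 42 in replicate 1, 38 overlapped one of the same class in replicate 2. Of these 38, 35 lay before 14 Mb, none between 14 and 18 Mb, and 3 beyond 18 Mb. That outer part is 60.8% of the arm and held 92.1% of the shared very broad domains, while it held 69.9% ± 0.398 of all 2L regions and 72.8% ± 0.0976 of the marked sequence (SD, n = 2). Per 10 Mb there were 18.3 very broad domains on 2L in each replicate, against 25.4 and 23.4 on the background arms. Arm 3L had 19.1 and 15.5, a range that takes in the 2L value.

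The longest domain present in both replicates was 20.4 kb long in replicate 1, from 4964159 to 4984588, and 19.9 kb long in replicate 2, from 4964389 to 4984286. It was also among the 5 regions of highest score on the arm, with 2.67 in replicate 1 and 2.44 in replicate 2. The second, 19569508 to 19589508 (20.001 kb in replicate 1 and 19.8 kb in replicate 2), was nearly as long but scored 1.77 and 1.61. Among the 10 longest, 1 lay closer to the centromere, 21153272 to 21172140, with 18.9 kb in replicate 1 and 18.8 kb in replicate 2. The remaining 7 of the 10 longest were 2870458 to 2890390, 2211230 to 2230438, 18692799 to 18710571, 6954811 to 6972432, 11986092 to 12003308, 4450068 to 4466921 and 5972853 to 5989137 in the coordinates of replicate 1. Their lengths there were 16.3 to 19.9 kb. Lengths of most of these domains differed by less than 1 kb between replicates. The exception was 4450068 to 4466921, of 16.9 kb in replicate 1, which in replicate 2 was part of a domain of 25.3 kb from 4441552 to 4466841.

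Several very broad domains of one replicate appeared in the other as 2 pieces with a gap between them. Of the 42 domains of replicate 1, 6 corresponded to 2 regions in replicate 2, and 6 of the 42 in replicate 2 corresponded to 2 regions in replicate 1. The longest region of replicate 1 on the arm, 6459630 to 6483970 (24.3 kb), was one of them and fell into pieces of 9.55 and 14.8 kb in replicate 2. Between 14 and 18 Mb this decided whether any very broad domain was present at all. Replicate 1 had 2 there, 14353207 to 14363777 (10.6 kb) and 17471013 to 17486068 (15.1 kb), and replicate 2 had none. In replicate 2 the first was split by a gap of 78 bp and the second by a gap of 430 bp. Splitting was not confined to 2L. Among regions of any length, replicate 2 split 20 of 824 regions of replicate 1 on 2L. On 3L it split 24 of 918, on 3R 24 of 1109 and on X 36 of 805. Replicate 1 split 16 of 806 regions of replicate 2 on 2L, 15 of 907 on 3L, 24 of 1085 on 3R and 38 of 804 on X. Shared or split very broad domains are not counted here on the background arms.

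Of the 5 highest scores on 2L, 4 belonged to regions shorter than 10 kb. Ranked by the mean of both replicates, 2763888 to 2772092 (8.21 kb in replicate 1) came first, with scores of 2.74 and 2.42. Next was 9935866 to 9941110 (5.25 kb; 2.72 and 2.40), then the 20.4 kb domain named above, which had the highest score of the arm in replicate 2 (2.44). After it came 5996056 to 6001968 (5.91 kb; 2.61 and 2.33) and 6043535 to 6053251 (9.72 kb; 2.57 and 2.37). All 5 were in the outer 10 Mb of the arm.

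Neighbouring regions on 2L were mostly a few kb apart, with a long tail of wide gaps. The median gap was 6.90 kb in replicate 1 and 7.08 kb in replicate 2, against 7.10 and 7.23 kb on the background arms. The middle 50% of gaps ran from 2.48 to 25.05 kb in replicate 1 and from 2.51 to 25.02 kb in replicate 2. At the median, then, 2L was no more widely spaced than its background, and its mean gap was nevertheless wider, at 23.6 and 24.2 kb against 21.8 and 22.2 kb. Wide gaps took up more of 2L. There, replicate 1 had 45 gaps of 100 kb or more and replicate 2 had 46, and they took up 33.2% ± 1.12 of the arm, against 29.4% ± 0.925 of the background arms (SD, n = 2). X was close to 2L in this, with 32.1% ± 0.228.

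**Figure D2:**
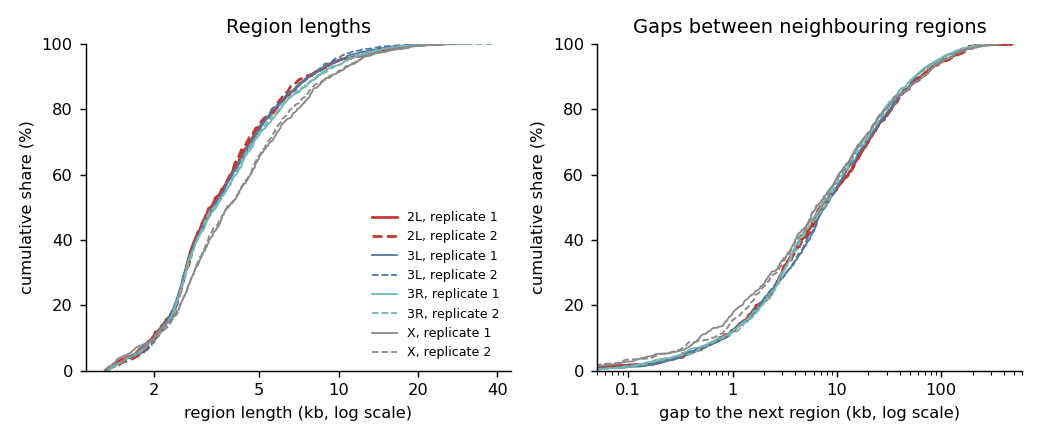
Cumulative share (%) of region lengths, left, and of gaps to the next region, right, on log axes in kb, with 1 line per arm and replicate. The 2L lengths follow those of 3L and 3R and lie left of X (medians 3318 bp on 2L and 3800 bp on X), and the gaps of all arms lie close together (median 6.99 kb on 2L, 7.17 kb on the background arms).

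At the close end of the scale, 59 gaps on 2L in replicate 1 (7.17%) and 51 in replicate 2 (6.34%) were under 500 bp, against 8.20% and 7.41% on the background arms. They tied 110 regions into 51 runs in replicate 1 and 99 regions into 48 runs in replicate 2, and 30 runs of replicate 1 overlapped one of 31 runs of replicate 2. Runs were nearly all pairs. The 1 run with at least 3 regions in both replicates spanned 8002553 to 8014002 (4 regions, 11.5 kb) in replicate 1 and 8002608 to 8010187 (3 regions, 7.58 kb) in replicate 2. The next in rank, by position, were 291453 to 300680 and 1146857 to 1161144, each a pair in both replicates.

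Isolated regions, those whose nearer neighbour was 50 kb away or more in both replicates, numbered 25 on 2L, and 10 of them lay between 14 and 18 Mb. Only 5 were isolated by 100 kb, of which 3 lay there. That stretch is 17.4% of the arm and held 9.45% ± 0.0260 of its regions (SD, n = 2). It was picked for being sparse, so isolated regions there follow in part from the choice. No count of isolated regions on the background arms is given here. The most isolated of all was 17776826 to 17778764, a short region of 1.94 kb in replicate 1 and 1.62 kb in replicate 2 that scored 0.49 and 0.44. Next came 17962625 to 17964961 (2.34 kb; 1.07 and 0.92) and 14850426 to 14852289 (1.86 kb; 0.51 and 0.57). The other 2 of the 5 were 4030530 to 4033935 (3.41 kb; 1.38 and 1.33) and 18319229 to 18322621 (3.39 kb; 1.67 and 1.45). All but the last scored below the 2L medians of 1.53 in replicate 1 and 1.41 in replicate 2.

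Along 2L the covered share changed in places several-fold from one Mb to the next, and both libraries traced the same profile. Over its 23 complete windows of 1 Mb the mean of both replicates had its lowest value at 3.89%, its median at 15.0% and its highest value at 25.3%. The replicates differed by at most 1.38 percentage points in a window. In 21 of the 23 windows replicate 2 had the lower value, as it had in 61 of 73 on the background arms. The SD between windows was 6.18 percentage points on 2L, against 5.96 on 3L, 5.53 on 3R and 5.90 on X. The share of windows at or above 20% was smaller on 2L, with 5 of 23 windows, against 27 of 73 on the background arms.

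The most densely marked windows lay in the outer part of the arm. Window 10000001 to 11000000 was covered to 25.2% in replicate 1 and 25.3% in replicate 2, and 1 to 1000000, at the telomere, to 25.05% and 24.9%. Window 8000001 to 9000000 had 24.9% and 24.8%, and with 59 and 56 regions it held more of them than any other Mb of 2L. Some neighbouring windows differed widely. The Mb after the telomeric one had 14.4% ± 0.194, 7000001 to 8000000 had 16.1% ± 0.175 and 9000001 to 10000000 had 15.7% ± 0.0944 (SD, n = 2). Window 7000001 to 8000000 held 49 regions in replicate 1 and 46 in replicate 2, near the numbers of the more widely covered telomeric Mb (49 and 52). Before 14 Mb the lowest window was 11000001 to 12000000, at 11.3% in replicate 1 and 11.1% in replicate 2. It contained the third longest stretch of the arm with no region in either replicate, 11528808 to 11803645 (275 kb).

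**Figure D3:**
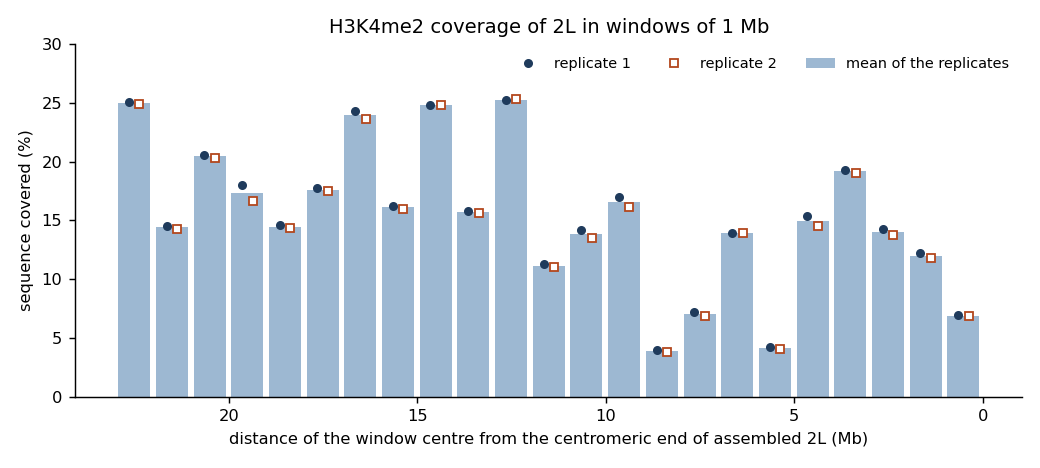
Sequence covered by H3K4me2 regions (%) in the 23 windows of 1 Mb of 2L, by the distance of the window's centre from the centromeric end (Mb), with bars for the mean and points for each replicate. Values reach 25.3% in the outer part of the arm, drop to 3.89% and 4.15% in the sparse stretch and end at 6.91% beside the centromeric end.

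The telomeric end carried the mark from near its first assembled base. In the first 100 kb both replicates had 6 regions. The outermost was 2.50 kb long in replicate 1, from 5039 to 7538, and 2.53 kb long in replicate 2, from 4993 to 7524. The broadest, 65664 to 75855, was a domain of 10.2 kb in replicate 1 and 10.1 kb in replicate 2. The others began at 16056, 57717, 83136 and 94052 in replicate 1 and were 1.72 to 7.26 kb long. Of these 6, 5 had scores above 1 in both replicates, and 57717 to 59435 was the exception, with 0.48 and 0.35. Over its telomeric Mb 2L was covered to 25.0% ± 0.119, against 23.1% ± 0.614 on 3L, 15.1% ± 0.150 on 3R and 17.5% ± 0.445 on X (SD, n = 2).

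The stretch from 14 to 18 Mb was sparse and held the 2 emptiest windows of 1 Mb on 2L. It was picked out because earlier values of these lists had shown it to be sparse, so its low share is a description. Regions covered 7.33% of these 4 Mb in replicate 1 and 7.19% in replicate 2, against 17.2% and 16.8% of the rest of 2L. The last 1 Mb at the centromeric end had a slightly lower share, with 6.93% in replicate 1 and 6.88% in replicate 2. The stretch is 17.4% of the arm, and held 9.45% ± 0.0260 of the 2L regions and 8.24% ± 0.0229 of the marked sequence (SD, n = 2). It was also the lowest run of 4 windows on 2L. Its mean of 7.26% ± 0.0982 on 2L compares with 12.6% ± 0.290 for the lowest such run on 3L, 14.1% ± 0.421 on 3R and 14.1% ± 0.333 on X (SD, n = 2). As a ratio to the share of the rest of its arm, the run of 2L reached 0.427, that of 3L 0.764, that of 3R 0.776 and that of X 0.761.

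**Figure D4:**
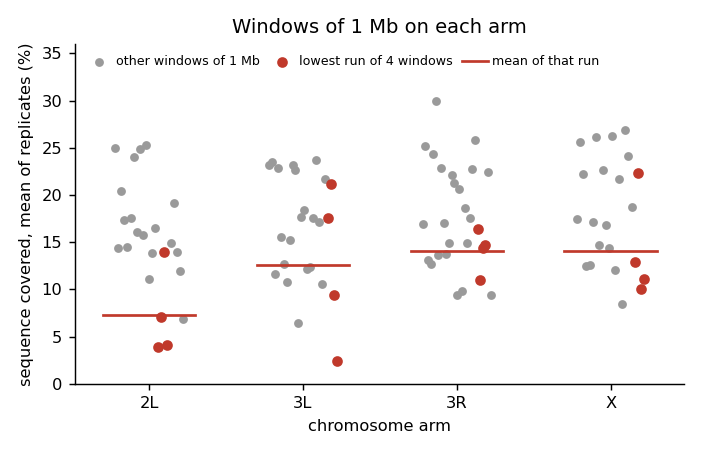
Sequence covered (%, mean of 2 replicates) in every complete window of 1 Mb, by arm, with the 4 neighbouring windows of lowest mean in red and their mean as a line. The line of 2L lies at 7.26%, and those of 3L, 3R and X lie at 12.6%, 14.1% and 14.1%.

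Regions in this stretch were far fewer than in the rest of the arm and only somewhat shorter. There were 78 regions in replicate 1 and 76 in replicate 2, or 19.3 ± 0.354 per Mb, against 38.8 ± 0.595 in the rest of 2L (SD, n = 2). The ratio of the stretch to the rest of the arm was 0.496 ± 0.00151 for number and 0.860 ± 0.00522 for mean length (SD, n = 2). Median scores were 1.40 and 1.34 in the stretch, against 1.55 and 1.41 outside. Regions of 5 kb or more were 17.5% ± 1.24 of those in the stretch and 25.9% ± 0.465 of those outside, and regions under 2 kb were 10.4% ± 3.48 and 9.82% ± 0.903 (SD, n = 2). The median gap was 13.4 ± 0.535 kb in the stretch and 6.68 ± 0.234 kb outside. Gaps under 500 bp numbered 8 in each replicate, or 10.5% ± 0.196 of those in the stretch, against 6.75% ± 0.589 over the whole arm (SD, n = 2). All 8 of replicate 1 and 6 of replicate 2 lay between 15 and 17 Mb.

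Unmarked sequence within these 4 Mb came in long blocks. Of the 44 stretches of 2L of 100 kb or more with no region in either replicate, 10 lay wholly inside it, and with 1 that crossed its border they took up 56.5% of the 4 Mb. Of the 31 windows of 100 kb on 2L that were empty in both replicates, 12 lay here. The longest blocks were 15771978 to 16249548 (478 kb) and 16911301 to 17381802 (471 kb), and no region of the combined list lay wholly within either. The next on the arm were 11528808 to 11803645 (275 kb), 14014982 to 14232004 (217 kb) and 20098174 to 20310750 (213 kb), of which 1 is in the sparse stretch. Blocks of 300 kb or more numbered 2 on 2L and 5 on the background arms, or 0.869 and 0.668 per 10 Mb, and took up 4.12% and 2.24% of the sequence. By arm, X lay above 2L, with 3 blocks, 1.34 per 10 Mb and 4.64% of its sequence. Arms 3L and 3R lay below 2L, with 1 block each (0.407 and 0.358 per 10 Mb). Over all blocks of 200 kb or more, 2L had 2.61 per 10 Mb, against 3.87 on the background arms together (4.07 on 3L, 2.51 on 3R and 5.35 on X). At a limit of 100 kb the rate was 19.1 per 10 Mb on 2L, against 17.8 on the background arms. The order of 2L and its background in the number of blocks thus turned with the limit, and the longest 2 blocks of 2L were longer than any on 3L, 3R or X (367 kb).

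Between the 2 longest blocks lay a marked island. It ran from 16249549 to 16911300 (662 kb), was chosen after the values had been seen, and was covered to 21.04% in replicate 1 and 21.07% in replicate 2. It held 35 and 34 regions, which were all those of window 16000001 to 17000000, whose covered share was 13.9% ± 0.0149 (SD, n = 2). The island begins and ends at marked regions by construction, which raises its share. Before 14 Mb, where gaps of 100 kb or more are included, the share was 18.3% ± 0.274 (SD, n = 2). Of the 5 longest regions present in both replicates between 14 and 18 Mb, 4 were in this island. They were 16348242 to 16357512 (9.27 kb in replicate 1 and 9.37 kb in replicate 2), 16321010 to 16329933 (8.92 and 8.88 kb), 16725606 to 16734440 (8.84 and 8.63 kb) and 16305314 to 16312688 (7.38 and 7.24 kb). The third of these scored 2.58 and 2.34. In the first 250 kb of the island, which start at the same border, the covered share was 27.7% in replicate 1 and 27.9% in replicate 2.

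**Figure D5:**
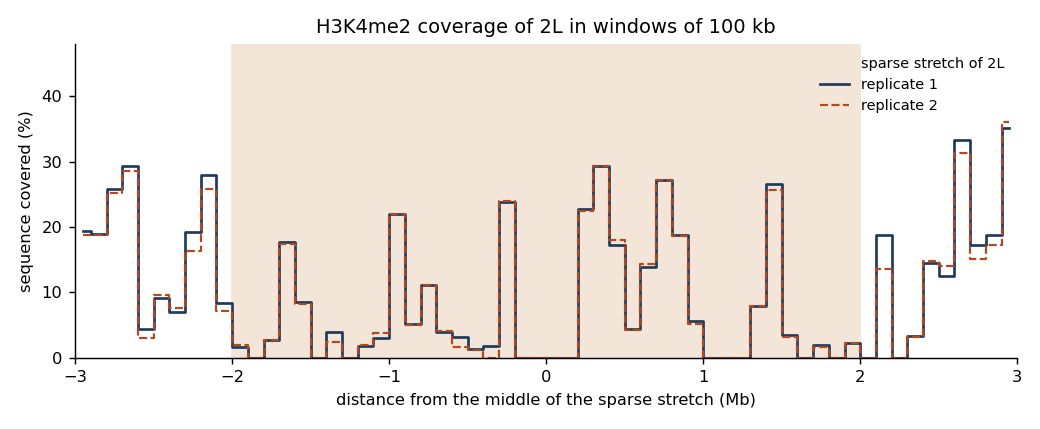
Sequence covered (%) in windows of 100 kb of 2L, by distance (Mb) from the middle of the sparse stretch, which is shaded, with 1 line per replicate. Empty windows on both sides of a marked island, which is covered to 21.1% as a whole, show the blocks of 478 and 471 kb, and the lines of the replicates lie close together.

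The 2 emptiest windows held few regions, which in the second of them were mostly in a single group. The window from 14 to 15 Mb had 11 regions in each replicate and was covered to 3.94% in replicate 1 and 3.84% in replicate 2. Its largest region was the domain of 10.6 kb named above, with a score of 1.99 in replicate 1, which followed closely on a region of 4.77 kb (1.30). The highest score of the window was 2.17 in replicate 1 and 1.73 in replicate 2. In replicate 1 it belonged to 14490012 to 14494595, which scored 1.69 in replicate 2. The window from 17 to 18 Mb had 10 regions in replicate 1 and 11 in replicate 2 and was covered to 4.22% and 4.09%. Of these, 7 in replicate 1 and 8 in replicate 2 lay together between 17381803 and 17501893. That group contained the domain of 15.1 kb (2.22 in replicate 1) and a region of 3.72 kb, 17408868 to 17412585, with the highest score of the window in replicate 1 (2.37; 1.96 in replicate 2). The remaining 3 regions were 1.65 to 2.34 kb long in replicate 1 and stood alone, the last at 17962625.

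At its centromeric end 2L was as sparse as in the inner stretch, with another makeup. The last 1 Mb of the assembled arm was covered to 6.93% in replicate 1 and 6.88% in replicate 2, against 15.9% and 15.5% of the rest of 2L. Its value was close to that of X, at 6.68% and 6.61%, and far above that of 3L, at 1.60% and 1.60%. On 3R the same end was covered to 17.2% and 16.6%. The share was lower over shorter ends of 2L, with 9.45% ± 0.177 over the last 2 Mb, 6.91% ± 0.0329 over the last 1 Mb and 5.19% ± 0.0468 over the last 0.5 Mb (SD, n = 2). Within these last 0.5 Mb there was no such order, since the windows of 100 kb from 22500001 to 23000000 had means of 0%, 6.01%, 4.61%, 5.74% and 9.58%. The complete windows of 1 Mb before this end had 14.96% ± 0.594 at 18000001 to 19000000, 19.2% ± 0.153 in the next, 14.02% ± 0.417 (SD, n = 2) in the third and values of 12.2% and 11.8% in replicates 1 and 2 in the one after.

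Regions at this end were both fewer and shorter than in the rest of the arm. There were 24 in replicate 1 and 22 in replicate 2, and the ratio of this end to the rest of 2L was 0.639 ± 0.0302 for number and 0.689 ± 0.0406 for mean length (SD, n = 2). In the inner stretch, as given above, the ratio was lower for number (0.496) and higher for length (0.860). The longest region here was 22127727 to 22132858, with 5.13 kb in replicate 1 and 5.15 kb in replicate 2, and it was the 1 region of 5 kb or more in either replicate. It scored 1.70 and 1.45. The next by length were 22734711 to 22739236 (4.53 kb in replicate 1), 22958969 to 22963169 (4.20 kb), 22470012 to 22474215 (4.20 kb) and 22426655 to 22429986 (3.33 kb). The last of them had the highest score of this end, 2.07 in each replicate, so a high score was not confined to long regions. The final region of the arm lay at 22967613 to 22969731 in replicate 1 and 22967717 to 22969803 in replicate 2, with scores of 0.70 and 0.61.

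Taken without their lowest 4 Mb and their centromeric 1 Mb, the arms were closer together. The rest of 2L was then covered to 17.8% in replicate 1 and 17.4% in replicate 2, against 18.2% and 17.8% of the background arms treated in the same way. This took 5 Mb each from 2L and 3R, but 4.54 Mb from 3L and 4.42 Mb from X, where both parts overlap. The difference was -0.416 ± 0.0390 percentage points (SD, n = 2), against -1.75 ± 0.0203 with the arms whole. For single arms the mean was 17.6% ± 0.296 on 2L, 16.9% ± 0.299 on 3L, 18.2% ± 0.315 on 3R and 18.9% ± 0.135 on X (SD, n = 2). In this form 2L lay above 3L in both replicates, whereas it lay below 3L with the arms whole. The 2 parts were chosen for their low values, so the approach of the arms to each other follows in part from the choice.

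The replicates marked nearly the same sequence on 2L. Of the 824 regions of replicate 1, 786 overlapped a region of replicate 2 by at least 1 bp (95.4%), beside 95.6% on 3L, 3R and X. Of the 806 regions of replicate 2, 791 overlapped a region of replicate 1 (98.1%), beside 97.2% on the background arms. These shares are near the background, so agreement was not a property of 2L. In bases, 91.4% of the sequence marked in either replicate was marked in both on 2L, against 91.1% on the background arms. The 741 regions of 2L that matched one to one were placed alike, with a median distance of 64 bp between corresponding edges. On 3L it was 63 bp, on 3R 60.5 bp and on X 77 bp. On 2L, 90% of edges lay within 330 bp. The scores of the matched 2L regions had a Spearman rho of 0.972 and a Pearson r of 0.974, as a description across regions. Spearman's rho was 0.978 on 3L, 0.978 on 3R and 0.972 on X.

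Regions of 2L without a counterpart were short and of low score. In replicate 1 there were 38, whose median length was 1520 bp, against 3393 bp for regions with a counterpart, and whose median score was 0.43, against 1.58. Replicate 2 had 15, of 1468 bp against 3393 bp, and with scores of 0.37 against 1.43. Of the 88 regions under 2 kb in replicate 1, 53 had a counterpart of any length, and of the 73 in replicate 2, 61 had one. Among regions of 5 kb or more every one had a counterpart, in both directions. Such values by length and score are not given here for the background arms, and whether they are particular to 2L was not tested. By score the first 3 without a counterpart were 18843128 to 18844559 (0.63), 19167801 to 19169818 (0.55) and 7856951 to 7858724 (0.54) in replicate 1. In replicate 2 they were 7982984 to 7984301 (0.63), 2448006 to 2450157 (0.59) and 9558305 to 9560653 (0.57). The sparse stretch held 4 of the 38 (10.5%), near its share of all regions of the arm in replicate 1 (9.47%), and none of the 15, where that share was 9.43%.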

How the data were processed

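H3K4me2 ChIP-seq lists of 2 immunoprecipitates and a combined list were used. The inputs entered only through the authors' calls. The aligner was Bowtie 0.12.7, according to the submitters' processing notes, and coordinates follow FlyBase release 5, per the file headers. The deposited score of each region has no stated scale, and it was used only to rank and filter within a list or to describe. The starts and ends deposited by the authors are in base pairs. No source used here gives the region caller, its threshold or the way replicates were combined. Read counts are not part of these lists, and depth is therefore unknown.

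All enriched regions named 2L were taken. Covered shares used the sequence lengths in the headers. Gaps were counted between neighbouring regions, and regions were placed in windows by their middle. The centromeric end is the high-coordinate end of 2L, 3L and X and the low-coordinate end of 3R. Mean and SD are over 2 replicates. A region of 3R that starts at 0 was set to 1. The code was tested on simulated data.

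Named on 2L were the 10 longest regions in both replicates, the 5 of highest mean score, the 5 longest unmarked stretches, the 3 highest and 3 lowest windows of 1 Mb, the 5 longest regions in 14 to 18 Mb and in the centromeric 1 Mb, the 3 closest runs, the 5 most isolated regions, the 3 highest-scoring unmatched regions of each replicate and those in the first 100 kb. Members, rules and alternatives were chosen with earlier results of these data known. Ratios of number and length, overlaps of the combined list on the other arms, the island and the split domains were added after the values had been seen. Alternatives were the combined list, a minimum of 2 kb, the 50% of regions with the higher score, joining under 500 bp, other widths of the end, the arms without their sparsest parts, reciprocal overlap and leaving out a replicate. Computations used Python 3.11.15, numpy 2.4.6, pandas 2.3.3, scipy 1.17.1 and matplotlib 3.10.9.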

Additional observations from a re-analysis of the deposited data

How the results depend on the processing

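In the combined list, 16.7% of 2L was covered (15.3% as the mean of the replicates), with 37.6 regions per Mb (35.4), a median gap of 6467 bp (6991 bp), 7.84% of 14 to 18 Mb (7.26%), 7.47% of the centromeric 1 Mb (6.91%) and a difference from the background arms of -2.03 points (-1.75). With regions of 2 kb or more, these were 14.7%, 31.9 per Mb, 8095 bp, 6.92% and 6.57%, and 91.8% of marked 2L sequence was in both replicates (91.4%). With the 50% of regions of higher score, which counts less sequence by construction, 9.88% of 2L, 4.04% of 14 to 18 Mb and 2.88% of the centromeric 1 Mb were covered, the difference was -1.53 points and 86.1% was in both replicates. Joining regions gave 33.03 per Mb, a median length of 3477 bp (3318 bp) and a median gap of 8581 bp. The centromeric end was covered to 5.19% over 0.5 Mb and 9.45% over 2 Mb, and the difference was -0.416 points without the sparsest parts. By 50% reciprocal overlap, 94.2% of regions were in both replicates. The difference of 2L from the background arms kept its sign in its 6 alternatives, but against 3L alone 2L lay below with the arms whole (15.3% against 15.9%) and above without the sparsest parts (17.6% against 16.9%).

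Without one replicate, values ran from 15.2% to 15.5% for 2L, 7.19% to 7.33% for 14 to 18 Mb, 6.88% to 6.93% for the centromeric 1 Mb, -1.76 to -1.74 points for the difference, 35.03 to 35.8 regions per Mb, 3275 to 3362 bp in length and 6901 to 7080 bp in gap. These values lie within 1 SD of the mean by construction. No paired analysis was possible because immunoprecipitates were not set against inputs, the groups that share replicate numbers, while arms were compared within each library. Depth is unknown, so its part was not assessed.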

Other observations

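The combined list had 866 enriched regions on 2L, of which 756 (87.3%) overlapped regions of both replicates, 53 a single replicate and 57 neither (6.58%). On 3L, 3R and X together these shares were near the same, with 87.0% in both replicates and 6.55% in neither. For those in neither replicate the median was 1228 bp in length and 0.29 in score, and 5 of them (8.77%) lay between 14 and 18 Mb, near the 9.35% of all combined regions of 2L. One of them, 2L 21529369 to 21530369, had the highest score of all combined regions on the arm, 2.58. It was 1001 bp long, the minimum of the combined list on each of 2L, 3L, 3R and X. The replicate lists held nothing under 1301 bp, which is above the length of that region and above the median of 1228 bp. The nearest region of either replicate was 42.4 kb away. The second highest in that group, 21539840 to 21541243 (1404 bp, 1.45), lay in the same interval, and the third was 8022650 to 8023726 (0.93).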
